A study of Homo sapiens with 2 samples.

Results

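The genes described are 7 of the 36601 listed in the deposited matrices, all of them genes of ketone body metabolism and fatty acid oxidation: ACAT1, BDH1, CPT1A, CPT2, ACADM, PPARA and PDK4. They were selected by symbol with results of these same libraries known, so their levels in the cytokine comparison and along TTR are a description and carry no test. The libraries are single-cell RNA-seq of colon organoids that all derive from 1 established line of human iPS cells, 1383D6. One organoid culture was left untreated (CNT) and the other was exposed over 8 days to IL-1β, IFN-γ and TNF-α (3CK). Both came from the same differentiation scheme, which took the cells through Activin A and then FGF2 and, after embedding in Matrigel, exposed them to agents that included EGF, forskolin, PD98059 and the DNA methylation inhibitor 5-aza-2'-deoxycytidine, so the untreated culture carries these agents as well. The series title calls the system a model of ulcerative colitis, and the comparison asks how these genes stand in organoid cells after inflammatory cytokines. With 1 library per condition there is no replicate check, and all intervals are at 95% and cover counting error alone.

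Fatty acids enter the mitochondrion through the carnitine shuttle. CPT1A, on the outer mitochondrial membrane, joins long-chain acyl groups to carnitine, and CPT2, on the inner membrane, transfers them back to coenzyme A. Beta-oxidation then shortens the chain, with ACADM (medium-chain acyl-CoA dehydrogenase) catalysing the first step for medium-chain substrates. ACAT1, the mitochondrial acetoacetyl-CoA thiolase, and BDH1, which interconverts acetoacetate and beta-hydroxybutyrate, act in making and in using ketone bodies. PPARA is a nuclear receptor that binds fatty acids and drives genes of this pathway in liver and intestine, and PDK4, a kinase that inactivates pyruvate dehydrogenase and so spares glucose, is among its best known targets. The colon epithelium uses fatty acids, above all butyrate from gut bacteria, as fuel.

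In RefSeq, on GRCh38, ACAT1 lies at chr11:108116705-108147603, BDH1 at chr3:197509783-197573343, CPT1A at chr11:68754620-68844277 and CPT2 at chr1:53196824-53214197. ACADM lies at chr1:75724709-75763679, PPARA at chr22:46150526-46243756 and PDK4 at chr7:95583499-95596516. All 7 matched RefSeq promoter sequences (GRCh38.p14). The bases upstream of the start are shown for the 2 ketone body enzymes (lower in 3CK), CPT1A (higher) and PDK4. Bases that GENCODE v44 assigns to a 5' untranslated region are left out. The stretches are chr11:108121317-108121552 on the plus strand for ACAT1, chr3:197556049-197556218 on the minus strand for the GC-rich start of BDH1, chr11:68844411-68844527 on the minus strand for CPT1A and chr7:95596517-95596766 on the minus strand for PDK4. Capitals mark the GC box GGGCGG, the CCAAT box CCAAT and the half-site TGACG of the cyclic AMP response element, on either strand.
ACAT1: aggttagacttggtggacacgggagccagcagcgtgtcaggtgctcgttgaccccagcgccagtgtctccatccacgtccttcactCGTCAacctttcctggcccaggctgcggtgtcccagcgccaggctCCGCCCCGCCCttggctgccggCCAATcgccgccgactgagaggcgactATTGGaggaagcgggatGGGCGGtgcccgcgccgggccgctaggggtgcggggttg
BDH1: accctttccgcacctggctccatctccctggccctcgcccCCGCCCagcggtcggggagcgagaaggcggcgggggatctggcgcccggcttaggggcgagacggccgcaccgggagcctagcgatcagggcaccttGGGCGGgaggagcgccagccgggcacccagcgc
CPT1A: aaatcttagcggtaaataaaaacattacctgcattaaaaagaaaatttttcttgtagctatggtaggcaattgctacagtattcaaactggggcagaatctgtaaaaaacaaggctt
PDK4: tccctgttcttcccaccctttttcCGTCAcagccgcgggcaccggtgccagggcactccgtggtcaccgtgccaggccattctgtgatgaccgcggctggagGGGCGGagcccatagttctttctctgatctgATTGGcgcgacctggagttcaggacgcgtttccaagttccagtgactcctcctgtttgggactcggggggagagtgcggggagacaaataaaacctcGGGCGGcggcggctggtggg
In ACAT1 a pair of GC boxes overlap by 1 base.

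Over the 250 bases before the start, CPT1A and 1 of the 2 starts of BDH1 stood apart in composition. For CPT1A, 44.4% of its bases were G or C, with 7 CpG dinucleotides, against a median of 58% and 11 over 34788 RefSeq windows. ACAT1 held 69.2% and 23 CpG at the start shown (73.6% and 27 at its other), PDK4 62.8% and 19, CPT2 65.2% and 18, and ACADM 70.8% and 25. BDH1 had a start at 77.6% with 34 CpG and another at 45.6% with 1, and the 2 windows of PPARA stood at 84.4% and 87.2%. A GC box was present in a window of each gene but CPT1A, and in 42.6% of all windows. CPT1A was read at 1 start only, and 133 of the 250 bases of that window were left out of the stretch shown. Other starts of CPT1A, if any, were not examined, so its values describe that window and not the gene. The CCAAT box was found for ACAT1, PDK4 and PPARA (32.0% of all windows), and the half-site TGACG for ACAT1 and PDK4 (21.2%). None of the windows of the 7 genes held the PPAR-type direct repeat, 2 copies of AGGTCA with 1 base between them, which 0.0115% of all windows hold in this exact form, or the half-site AGGTCA alone (12.0%). The same held for the estrogen-related receptor element TCAAGGTCA (0.319%), which contains that half-site, the STAT-type element TTCNNNGAA (6.57%), the interferon-response core, 2 copies of GAAA with 2 bases between them (3.02%), the complete cyclic AMP response element TGACGTCA (1.64%), which contains the half-site TGACG, and the E-box CACGTG (6.31%). All motifs were read on both strands, and a match or its absence describes these letters in this window only.

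The deposited matrices held 105314879 unique molecular identifiers (UMIs) in 3257 barcodes for CNT and 94887438 in 1641 barcodes for 3CK, with 0 barcodes in common. Filters kept 2487 and 1398 cells, whose UMIs were summed and expressed per 1000000 UMIs of the set (CPM). Epithelial cells, taken as kept cells with at least 10000 UMIs and at least 2 EPCAM UMIs per 10000, numbered 1011 in CNT and 730 in 3CK, and 446 and 265 cells of the same minimum depth (deep cells) fell below that EPCAM level. The colon label was set beside lists of intestinal markers, and colon against other gut was not tested. The 7 enterocyte markers, among them the intestinal factor CDX2, summed to 668 CPM in CNT against 195 CPM in 3CK epithelial cells. None was at 0, which also held in the deep cells under the EPCAM limit. Of the 7, 0 in CNT and 1 in 3CK epithelial cells were under 1 CPM. Of 5 goblet markers 1 in CNT and 3 in 3CK were under 1 CPM. The hepatic markers (8 genes, TTR the most abundant) summed to 99938 CPM in CNT against 32914 CPM in 3CK epithelial cells, with none at 0. Epithelial cells were therefore also divided by TTR, the gene for the carrier protein transthyretin, into cells with under 50, 50 to 500 and over 500 TTR UMIs per 10000. These ranges held 87, 389 and 535 CNT cells and 225, 436 and 69 3CK cells, so the high range made up 52.9% of CNT but 9.45% of 3CK epithelial cells. Median depth was 57138 to 72866 UMIs per cell in the CNT ranges and 79500 to 99550 in the 3CK ranges. The part of cell makeup and depth in the differences over all epithelial cells was not tested; the values within TTR ranges are given with each gene.

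Both ketone body enzymes were lower in the cytokine-treated culture, both in epithelial cells with 50 or more TTR UMIs per 10000 and in deep cells under the EPCAM limit, while in epithelial cells with less TTR the intervals included equality. ACAT1 was at 23.5 CPM in CNT against 13.2 CPM in 3CK over all kept cells (2389 and 1210 UMIs), a log2 ratio of 3CK to CNT of -0.84 (interval -0.94 to -0.74). In epithelial cells its level was 22.9 CPM against 11.7 CPM. BDH1 was at 12.7 CPM in CNT against 5.24 CPM in 3CK over kept cells (1286 and 481 UMIs), 2.42-fold lower (log2 ratio -1.27, -1.43 to -1.12). In epithelial cells it was 2.60-fold lower, at 14.4 against 5.54 CPM. At 2-fold, 2 of the 7 genes, BDH1 and PDK4, were lower in 3CK over kept cells, where 11.4% of 17523 genes with at least 1 CPM were, and 0 were higher, against 6.97% of those genes. At 1.5-fold, 4 were lower and 1 higher, against 20.3% and 13.3%. The median log2 ratio of the 7 was -0.70, beside -0.06 over all those genes.

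**Figure D1:**
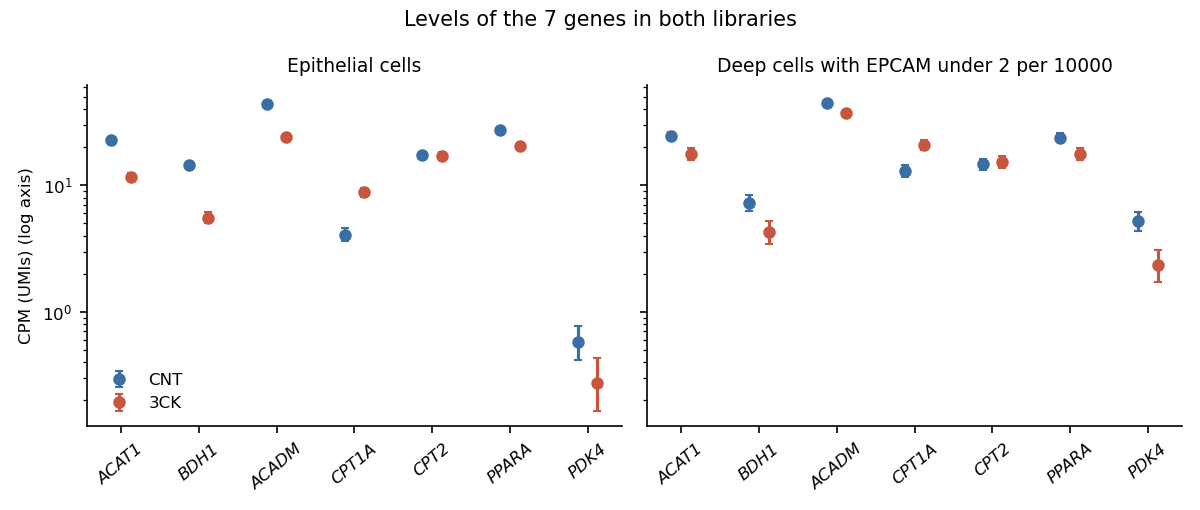
Levels of the 7 genes in CPM (vertical log axis) in epithelial cells (left) and in deep cells with EPCAM under 2 per 10000 (right), with exact Poisson 95% intervals as bars. In epithelial cells ACAT1, BDH1, ACADM, PPARA and PDK4 stand lower in 3CK (red) than in CNT (blue), CPT1A stands higher and CPT2 is at 17.2 CPM in both.

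Among cells under 50 TTR UMIs per 10000, ACAT1 was at 15.1 CPM in CNT against 15.2 CPM in 3CK (87 and 289 UMIs), and the interval of the log2 ratio ran from -0.34 to 0.38. In the range from 50 to 500 it was at 24.6 CPM in CNT against 10.1 CPM in 3CK, a log2 ratio of -1.28 (-1.45 to -1.10). Above 500 the levels were 22.8 and 11.6 CPM, although 21 of the 69 ACAT1 UMIs of those 3CK cells came from 1 cell. Leaving out the cell with the most ACAT1 in each library moved that log2 ratio from -0.98 to -1.44. In deep cells under the EPCAM limit ACAT1 was at 24.6 against 17.8 CPM (log2 ratio -0.47, -0.66 to -0.28). Of the TTR ranges, the low one was thus the one where the libraries overlapped, and the log2 ratio in the middle range was lower than in the low range by a difference of -1.29 (-1.68 to -0.91).

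BDH1 followed the same order. Below 50 TTR UMIs its levels were 7.28 CPM in CNT against 6.95 CPM in 3CK (42 and 132 UMIs), with an interval of the log2 ratio from -0.58 to 0.47. They were 16.8 against 4.89 CPM from 50 to 500 (log2 ratio -1.78, -2.02 to -1.54) and 13.8 against 5.87 CPM above 500 (log2 ratio -1.23, -1.77 to -0.74). In deep cells under the EPCAM limit BDH1 was at 7.27 against 4.29 CPM (log2 ratio -0.76, -1.14 to -0.39). The log2 ratio of the middle range minus that of the low range was -1.71 (-2.26 to -1.16). In the middle range 3 of 6 genes with at least 1 CPM, ACAT1, BDH1 and ACADM, were lower by 2-fold and 0 higher, where 20.6% and 5.96% of all genes were.

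Levels within a TTR range also depend on scaling, since the median log2 ratio over all genes was -0.17 below 50 TTR UMIs, -0.33 from 50 to 500 and -0.18 above 500. With trimmed mean of M values (TMM) scaling the ratios from 50 to 500 were -0.90 for ACAT1 and -1.40 for BDH1, and below 50 they were 0.23 and 0.15, so the order of the ranges was kept. With the low range drawn at under 100 TTR UMIs in place of 50, its values were -0.36 for ACAT1 and -0.71 for BDH1, and with EPCAM at least 5 per 10000 they were 0.38 and -0.49. Over the 13 alternatives the middle range stayed between -1.65 and -0.90 for ACAT1 and between -2.10 and -1.40 for BDH1. The high range ran from -1.44 to -0.85 for ACAT1 and from -1.38 to -0.53 for BDH1, the last with the high range drawn at over 1000 TTR UMIs. Hepatic markers summed to 7409 CPM in CNT against 7427 CPM in 3CK below 50, to 55232 against 34030 CPM from 50 to 500, and to 141818 against 105789 CPM above 500. Enterocyte markers summed to 235 against 138 CPM below 50, 764 against 193 CPM from 50 to 500 and 666 against 398 CPM above 500, with FABP2 at 236 against 16.8 CPM in the middle range. The part of either marker list in the differences was not tested.

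Of the other genes of ketone body use and synthesis, OXCT1, which activates acetoacetate for oxidation, was at 14.0 CPM in CNT against 7.33 CPM in 3CK epithelial cells. In kept cells the 6 members of this list with at least 1 CPM, of which ACAT1 and BDH1 are 2, had log2 ratios below 0, as had 54.6% of all genes, with a median of -0.64. Of the 6, BDH1 was lower by 2-fold, as were 11.4% of all genes. Below 50 TTR UMIs 3 of the 6 had ratios below 0 and 3 above, beside 61.3% of all genes below 0, and the median was -0.03.

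**Figure D2:**
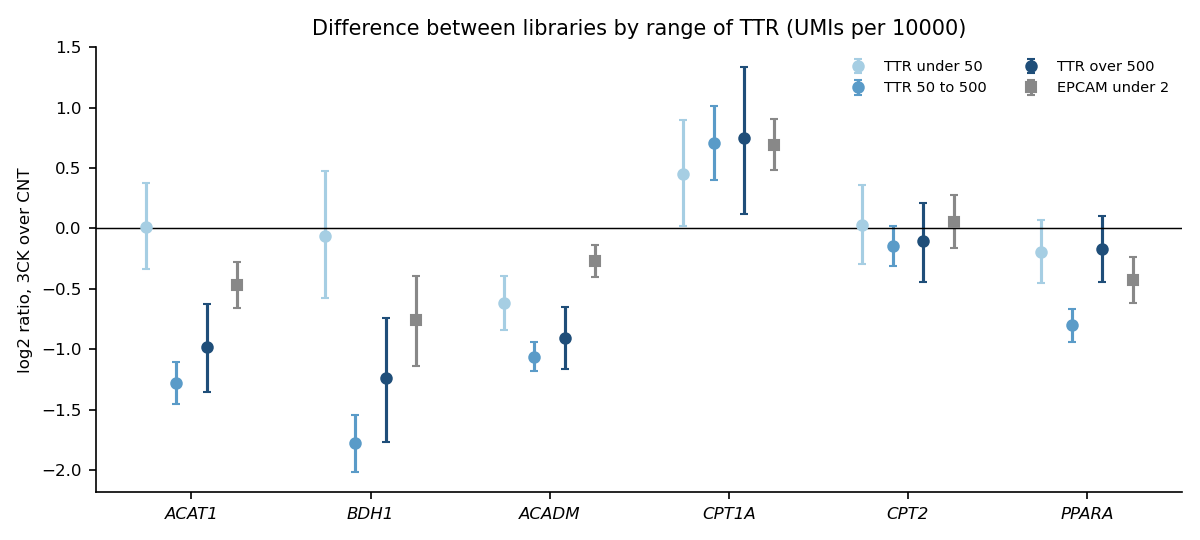
Log2 ratio of 3CK to CNT (vertical axis) for 6 of the genes in epithelial cells with TTR under 50, 50 to 500 and over 500 UMIs per 10000 (circles, light to dark) and in deep cells with EPCAM under 2 per 10000 (grey squares), with 95% counting intervals. For ACAT1 and BDH1 the lowest TTR range sits at 0.01 and -0.07 and the middle range at -1.28 and -1.78; PDK4 is left out for its low counts.

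The carnitine acyltransferases differed from each other: CPT1A was higher in 3CK over kept cells, over epithelial cells, in each TTR range and in cells under the EPCAM limit, and CPT2 was close to equal. CPT1A was at 4.08 CPM in CNT against 8.80 CPM in 3CK epithelial cells (305 and 610 UMIs), 2.15-fold higher (log2 ratio 1.11, 0.91 to 1.31). It was the 1 of 6 genes with at least 1 CPM that was higher by 2-fold there, where 8.63% of 16805 genes were, while 1, BDH1, was lower by 2-fold (12.1% of those genes). By TTR range the CPT1A levels were 9.53 CPM in CNT against 13.0 CPM in 3CK below 50, 4.60 against 7.50 CPM from 50 to 500, and 2.99 against 5.03 CPM above 500. The 3 log2 ratios of 0.45 (0.02 to 0.90), 0.71 (0.40 to 1.01) and 0.75 (0.12 to 1.33) overlapped. In deep cells below the EPCAM limit CPT1A was at 12.9 CPM in CNT against 20.9 CPM in 3CK, above each TTR range of the same library. Giving each kept cell equal weight lowered its log2 ratio over kept cells from 0.87 to 0.47.

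CPT2 was at 17.2 CPM in both libraries in epithelial cells (1288 and 1195 UMIs), and the interval of its log2 ratio was -0.12 to 0.11. Its level by TTR range lay between 16.1 and 18.9 CPM in CNT and between 14.9 and 18.2 CPM in 3CK, and each of the 3 intervals of the log2 ratio included 0. CPT2 overlaps CZIB on the opposite strand (3542 and 2494 UMIs), and the use of strand in counting is not given in the sources used here. Of the other genes of the shuttle, CPT1B, the muscle-type counterpart of CPT1A, was at 1.94 CPM in CNT against 8.74 CPM in 3CK epithelial cells (log2 ratio 2.17, 1.91 to 2.44). Its count is uncertain, since it shares read-through transcripts with the neighbouring gene CHKB. SLC25A20, the carrier that exchanges acylcarnitine across the inner membrane, was at 21.0 against 12.2 CPM, and SLC22A5, which brings carnitine into the cell, at 24.8 against 17.7 CPM. Over kept cells 1 of the 6 shuttle genes was higher by 2-fold and 0 were lower, beside 6.97% and 11.4% of all genes. The median log2 ratio of the shuttle genes was -0.19.

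ACADM was lower in 3CK in all the cell sets, including the cells with little TTR. Its levels were 44.4 CPM in CNT against 24.3 CPM in 3CK epithelial cells (3317 and 1685 UMIs), 1.83-fold lower (log2 ratio -0.87, -0.96 to -0.78). Below 50 TTR UMIs it was at 43.0 against 28.0 CPM, from 50 to 500 at 47.9 against 22.9 CPM, and above 500 at 42.4 against 22.7 CPM. The log2 ratio in the lowest range was -0.62 (-0.84 to -0.39), so the interval excluded 0 there for ACADM and included it for ACAT1 and BDH1. In deep cells under the EPCAM limit the difference was smaller, at 44.6 against 37.1 CPM (log2 ratio -0.27, -0.40 to -0.13). ACADM overlaps RABGGTB on the same strand (3010 and 2303 UMIs), so reads in the shared interval may be assigned to either.

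The other enzymes of mitochondrial beta-oxidation were mostly near equal between the libraries. Of the 16 genes of this list, ACADM among them, 2 were lower by 2-fold over kept cells and 0 higher, beside 11.4% and 6.97% of all genes. The median log2 ratio of the 16 was -0.07, beside -0.06 over all genes, and with TMM scaling it was 0.021. The counting bounds of the 2 middle genes averaged -0.15 and 0.01. ACADSB, a dehydrogenase for short branched chains that also serves isoleucine breakdown, had the lowest ratio, at 26.6 CPM in CNT against 4.52 CPM in 3CK epithelial cells. HADH, the short-chain 3-hydroxyacyl-CoA dehydrogenase, was at 11.3 against 4.77 CPM. Both were also lower below 50 TTR UMIs, ACADSB at 16.5 against 3.95 CPM and HADH at 14.2 against 5.37 CPM. ACADVL, the very-long-chain dehydrogenase, was at 152 CPM in both, HADHA, of the trifunctional protein, at 96.5 against 98.4 CPM, and ECHS1, the enoyl-CoA hydratase, at 169 against 163 CPM. ACAD9, a complex I assembly factor related to the dehydrogenases, had the highest ratio, at 11.0 against 12.8 CPM.

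PPARA was modestly lower in 3CK, in epithelial cells of the middle TTR range and in deep cells under the EPCAM limit. Its epithelial level was 27.3 CPM in CNT against 20.6 CPM in 3CK (2038 and 1431 UMIs), a log2 ratio of -0.40 (-0.50 to -0.30). From 50 to 500 TTR UMIs it was at 32.8 against 18.9 CPM (log2 ratio -0.80, -0.94 to -0.66). Below 50 it was at 28.2 against 24.7 CPM and above 500 at 23.5 against 21.0 CPM, and both intervals included 0. In deep cells under the EPCAM limit it was at 23.8 against 17.7 CPM (log2 ratio -0.43, -0.62 to -0.24). The log2 ratio of the middle range was lower than that of the lowest by a difference of -0.61 (-0.90 to -0.32). With TMM scaling the PPARA log2 ratio was 0.02 in the lowest range, -0.43 in the middle range and -0.34 in the deep cells under the EPCAM limit. With equal weight per cell it was -0.52 in the lowest range and -0.73 in the middle range, so the gap between these ranges depends on the weighting. Giving each kept cell equal weight moved the log2 ratio of PPARA over kept cells from -0.40 to -0.18.

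Other regulators of fatty acid oxidation differed in both directions. HNF4A, a nuclear receptor of liver and gut epithelium, was at 40.1 CPM in CNT against 24.3 CPM in 3CK epithelial cells, and RXRA, the partner of the PPARs on DNA, at 31.7 against 19.5 CPM. CREB3L3, a membrane-bound transcription factor of the fasting response, was at 41.9 against 24.4 CPM. Within TTR ranges CREB3L3 was higher in 3CK below 50 (9.35 against 13.4 CPM) and above 500 (44.9 against 61.6 CPM), and lower from 50 to 500 (44.1 against 24.1 CPM). PPARGC1B, a coactivator of mitochondrial genes, was at 2.92 against 8.05 CPM in epithelial cells, and NCOR1, a corepressor, at 98.4 against 121 CPM. Of 10 regulators with at least 1 CPM over kept cells, PPARA among them, 0 passed 2-fold in either direction, and their median log2 ratio was -0.32. Of all genes there, 11.4% were lower and 6.97% higher by 2-fold.

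PDK4 was the scarcest of the 7 genes by count and came mostly from cells outside the epithelial set. Over kept cells it had 182 UMIs in CNT and 69 in 3CK, at 1.79 and 0.751 CPM (log2 ratio -1.25, -1.68 to -0.85). Of these, 130 and 50 UMIs lay in deep cells under the EPCAM limit, at 5.19 and 2.33 CPM, and 43 and 19 in epithelial cells, at 0.576 and 0.274 CPM. A single cell held 34 of the 182 CNT UMIs and another 12 of the 69 in 3CK. Over the 8 alternatives the log2 ratio over kept cells ran from -2.57, with equal weight for each kept cell, to -0.86, which falls short of 2-fold. In epithelial cells over 500 TTR UMIs PDK4 had 20 UMIs in CNT and 0 in 3CK, where the limit of 3 UMIs corresponds to 0.503 CPM, above the CNT level of 0.479 CPM, so no fold was formed. Of the 11 PDK4 UMIs in CNT cells below 50 TTR UMIs, 9 came from 1 cell. PDK4-AS1, on the opposite strand, had 67 UMIs in CNT and 117 in 3CK kept cells, more than PDK4 itself in 3CK, and without knowledge of how strand was counted the 2 genes cannot be separated with certainty. Mesenchymal markers (7 genes) summed to 11598 CPM in CNT against 5576 CPM in 3CK among the cells under the EPCAM limit, and their part in the PDK4 difference was not tested.

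The other genes of pyruvate dehydrogenase and its control, and the known PPARA targets, were a mixed group. PDK1, PDK2 and PDK3, the other kinases of the complex, were at 7.47, 7.36 and 6.16 CPM in CNT epithelial cells and at 4.99, 5.06 and 3.36 CPM in 3CK. The phosphatase PDP1, which reverses them, was at 15.5 against 26.5 CPM, and MPC2, a subunit of the mitochondrial pyruvate carrier, at 359 against 170 CPM. The list of 12 genes holds kinases, phosphatases, subunits of the complex and the pyruvate carrier. Of the 12, only PDK4 was lower by 2-fold over kept cells and 0 were higher, beside 11.4% and 6.97% of all genes. The median log2 ratio of the 12 was -0.56. The 9 PPARA target genes with at least 1 CPM over kept cells include CPT1A and PDK4. Of the 9, 2 were lower and 1 higher by 2-fold, beside 11.4% and 6.97% of all genes, and the median was -0.25. FABP1, the fatty acid binding protein of liver and proximal gut, was at 1017 CPM in CNT against 138 CPM in 3CK epithelial cells, VNN1, a pantetheinase, at 8.01 against 18.1 CPM, and PLIN2, a lipid droplet coat protein, at 99.7 against 154 CPM. Members of the same target list thus stood on both sides of 0.

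**Figure D3:**
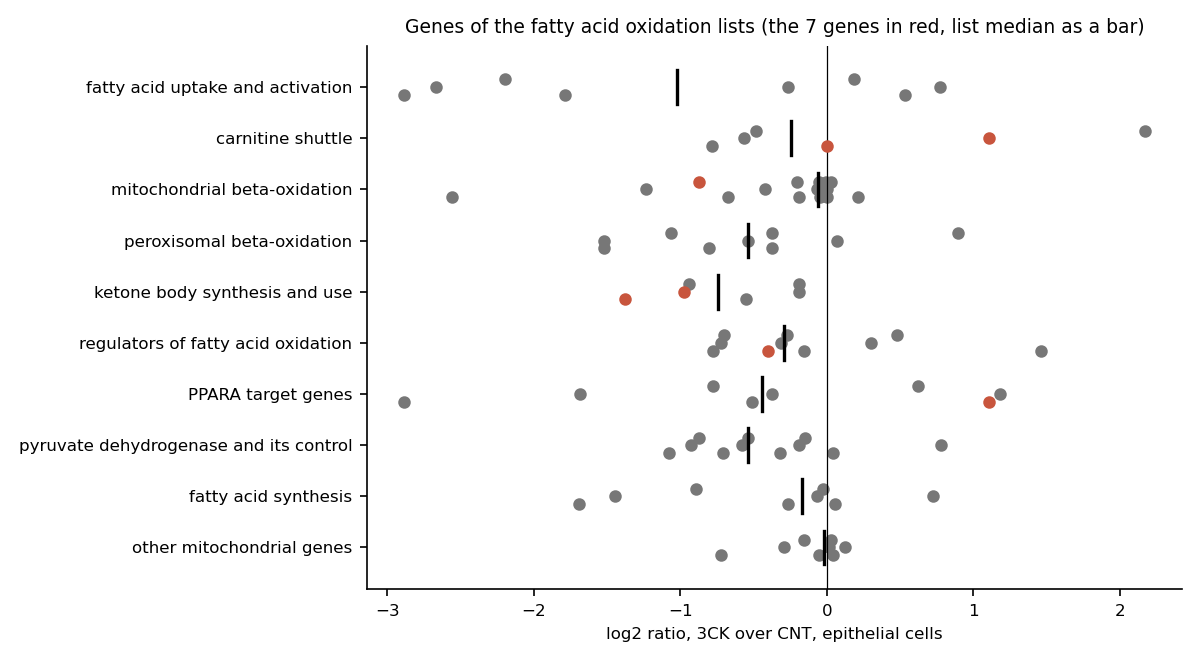
Log2 ratio of 3CK to CNT in epithelial cells (horizontal axis) for each gene with at least 1 CPM in 10 lists of lipid and mitochondrial genes (rows), with the list median as a black bar and the genes described here in red (PDK4 is under 1 CPM and not drawn). Mitochondrial beta-oxidation and the other mitochondrial genes centre near 0, at -0.06 and -0.02, while fatty acid uptake and activation has the lowest median, -1.02.

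Of the 10 lists, uptake and activation of fatty acids had the lowest median ratio in epithelial cells. Of its 8 genes, 4 were lower by 2-fold and 0 higher, beside 12.1% and 8.63% of all genes, with a median log2 ratio of -1.02, beside 0.01 over all genes there. SLC27A2, an acyl-CoA synthetase and transporter, was at 25.7 CPM in CNT against 5.61 CPM in 3CK, ACSL1, which activates long-chain fatty acids, at 7.71 against 2.24 CPM, and the scavenger receptor CD36 at 4.49 against 0.71 CPM. ACSL4, which prefers arachidonic acid, was at 9.65 against 16.5 CPM. Of 9 peroxisomal genes, 3 were lower by 2-fold, against the same 12.1% of all genes, and the median was -0.54: the thiolase ACAA1 at 502 against 175 CPM, the carnitine octanoyltransferase CROT at 39.5 against 13.7 CPM and the sterol carrier SCP2 at 165 against 79.1 CPM. For comparison, 8 other mitochondrial genes had a median log2 ratio of -0.02 in epithelial cells, with IDH3A lowest (-0.72) and CS, citrate synthase, highest (0.12). In fatty acid synthesis, the reverse pathway, 2 of 8 genes were lower by 2-fold there, again beside 12.1% of all genes: the desaturase SCD at 81.7 against 25.3 CPM and FASN at 48.6 against 17.9 CPM. The median of that list was -0.17.

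Within each library the 7 genes were related to TTR in different ways. From below 50 to above 500 TTR UMIs per 10000, CNT cells had higher ACAT1 (15.1 to 22.8 CPM, log2 ratio 0.60, 0.28 to 0.93) and higher BDH1 (7.28 to 13.8 CPM, log2 ratio 0.93, 0.47 to 1.41). In 3CK cells the corresponding levels were 15.2 and 11.6 CPM for ACAT1 (log2 ratio -0.40, -0.80 to -0.01) and 6.95 and 5.87 CPM for BDH1 (log2 ratio -0.24, -0.83 to 0.30). CPT1A was lower in the high range in both libraries, 3.18-fold in CNT (log2 ratio -1.67, -2.14 to -1.18) and 2.58-fold in 3CK (log2 ratio -1.37, -1.97 to -0.82). For CPT2, ACADM and PPARA the 6 log2 ratios lay between -0.31 and -0.02. Of the genes with at least 1 CPM, 42.4% were lower by 2-fold in the high range in each library and 4.3% were higher; of the 7 genes these were CPT1A and PDK4 in CNT, CPT1A in 3CK, and 0 that were higher. The PDK4 value in CNT rests on 1 cell, and without the cell with the most PDK4 UMIs in each range its log2 ratio moved from -1.99 to -0.06 (-2.18 to 3.12). Over all those genes the median log2 ratio was -0.81 in CNT and -0.80 in 3CK. With TMM scaling that median was 0.16 in CNT and -0.12 in 3CK, and the ratios of the 7 genes moved with it: ACAT1 became 1.51 in CNT and 0.23 in 3CK, BDH1 1.84 and 0.39, PPARA 0.65 and 0.39, ACADM 0.90 and 0.32, CPT2 0.77 and 0.34, and CPT1A -0.75 and -0.74. The sign for ACAT1 and BDH1 in 3CK and for PPARA, ACADM and CPT2 in both libraries therefore depends on the scaling, whereas ACAT1 and BDH1 were higher in CNT cells, and CPT1A lower in cells of both libraries, under either.

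**Figure D4:**
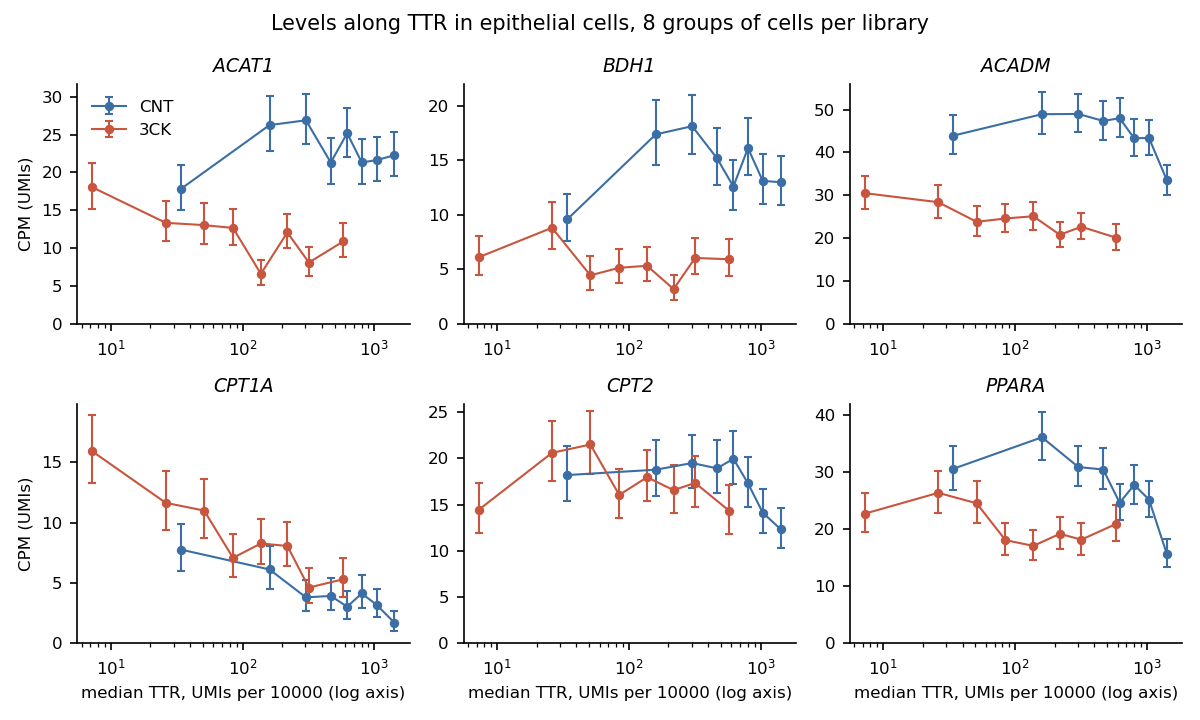
CPM (vertical axis, from 0) of 6 of the genes in 8 groups of epithelial cells of about equal number in each library, ordered by TTR (horizontal log axis, median UMIs per 10000), with exact Poisson 95% intervals. CNT (blue) stands above 3CK (red) throughout for ACADM, and CPT1A declines along TTR in both. The CNT and 3CK values of ACAT1 and BDH1 come closest in groups of low TTR, whose median TTR differs between the libraries.

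With the cells ordered by TTR and cut into 8 groups of equal size per library, ACAT1 was at 17.8 CPM in the lowest CNT group and between 21.3 and 26.9 CPM in the other 7. In 3CK its highest level, 18.0 CPM, was in the group with the least TTR, and the other 7 lay between 6.59 and 13.3 CPM. BDH1 was at 9.57 CPM in the lowest CNT group and between 12.6 and 18.1 CPM in the rest, and between 3.17 and 8.80 CPM across the 3CK groups. The point values of ACADM did not overlap between the libraries, at 33.5 to 49.0 CPM in the CNT groups and 20.1 to 30.5 CPM in the 3CK groups. The intervals of the lowest CNT value (30.1 to 37.2 CPM) and the highest 3CK value (26.8 to 34.5 CPM) did overlap. CPT1A went from 7.78 to 1.71 CPM from the lowest to the highest CNT group and from 15.9 to 5.32 CPM in 3CK. PPARA was lowest in the CNT group with the most TTR, at 15.6 CPM, and spanned 17.1 to 26.4 CPM across the 3CK groups.

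Among 3CK epithelial cells the level of CXCL10, a chemokine gene induced by IFN-γ, gave a second ordering, chosen after the data had been seen. From the tertile of cells with the least CXCL10 to that with the most, PPARA was at 25.6, 23.0 and 14.8 CPM, and the intervals of the lowest and highest tertiles (23.5 to 27.9 and 13.3 to 16.3 CPM) did not overlap. BDH1 was at 7.19, 5.62 and 4.17 CPM in the same order, again without overlap of the outer tertiles. ACAT1 was at 11.0, 11.7 and 12.1 CPM, CPT1A at 8.19, 9.57 and 8.64 CPM and CPT2 at 16.0, 18.4 and 17.2 CPM, all with overlapping intervals. ACADM was at 25.7, 25.9 and 21.9 CPM. HNF4A went with PPARA, at 35.4, 27.3 and 13.1 CPM. Median depth was 82034, 91157 and 106705 UMIs per cell and TTR was at 27089, 17765 and 14916 CPM across the tertiles, and the part of either in these differences was not tested.

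**Figure D5:**
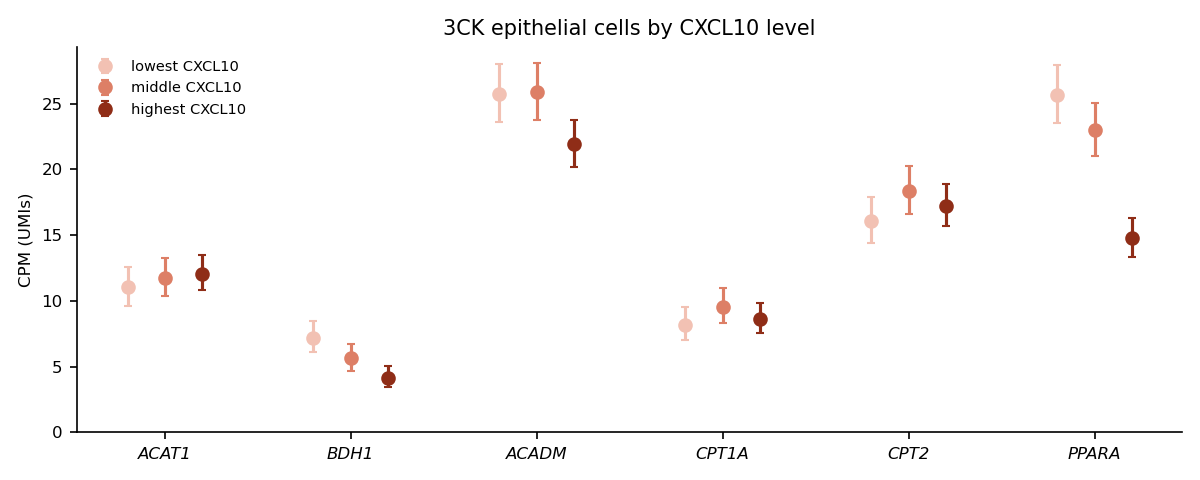
CPM (vertical axis, from 0) of 6 of the genes in 3CK epithelial cells divided into tertiles by CXCL10 (light to dark), with exact Poisson 95% intervals. PPARA and BDH1 are lowest in the tertile with the most CXCL10, at 14.8 and 4.17 CPM, while ACAT1, CPT1A and CPT2 overlap across the tertiles.

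Cells with at least 2 UMIs per 10000 of FABP2, a fatty acid binding protein of enterocytes, were another division made after the data had been seen, with 74 cells in CNT and 13 in 3CK. In CNT, ACAT1 was at 43.8 CPM in these cells and 21.2 CPM in the other epithelial cells, and CPT1A at 11.0 against 3.54 CPM, while ACADM (44.5 and 44.4 CPM) and CPT2 (16.7 and 17.3 CPM) were nearly equal. BDH1 was at 12.1 against 14.6 CPM, with overlapping intervals. In 3CK, CPT1A was at 24.1 against 8.60 CPM, and ACAT1 at 13.8 against 11.6 CPM on 12 UMIs. CPT1A was thus higher in the FABP2 cells of both libraries, and the ACAT1 contrast of CNT was not detectable in 3CK at this depth.

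The share of cells with a UMI, after each epithelial cell was thinned to 10000 UMIs, was lower in 3CK for ACAT1, BDH1 and ACADM and higher for CPT1A. ACADM was detected in 33.8% of CNT cells and 19.7% of 3CK cells, ACAT1 in 19.2% (16.8 to 21.8, exact binomial) and 11.0% (8.79 to 13.5), and BDH1 in 13.8% and 5.07%. CPT1A was detected in 3.66% and 9.73%, CPT2 in 18.0% and 16.2%, PPARA in 21.6% (19.1 to 24.2) and 20.0% (17.2 to 23.1), and PDK4 in 0.495% and 0.274%. The intervals of CPT2, PPARA and PDK4 overlapped, although the level of PPARA was lower in 3CK. Without thinning the deeper 3CK cells gave 79.2% for ACADM, 52.3% for ACAT1 and 35.2% for BDH1, against 83.6%, 63.2% and 50.7% in CNT. In the thinned cells under the EPCAM limit PDK4 was found in 2.69% of CNT and 0.755% of 3CK cells. Because every one of these cell types may use the pathway, no cell type lacking the genes was at hand to set the level that free RNA would give.

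The patterns of the 7 genes were compared over 8 sums of deep cells, the 3 TTR ranges and the cells under the EPCAM limit of each library, as Pearson correlations of log2(CPM + 1) that describe these 8 sums alone. ACAT1 and ACADM were the most alike pair (r = 0.894), followed by BDH1 and PPARA (r = 0.792), and BDH1 and CPT1A ran opposite (r = -0.693). Among 9312 candidate genes the closest to ACAT1 was BACE1 (r = 0.957), to BDH1 SUMF2 (r = 0.976), to CPT1A PDLIM7 (r = 0.992), to CPT2 RAB14 (r = 0.970), to ACADM ACO1 (r = 0.973) and to PPARA PDXDC1 (r = 0.986). The nearest to PDK4 was the collagen gene COL11A1 (r = 0.989), followed by IGDCC3 and CERCAM. The 8 sums share 2 libraries and the TTR-based division, and with so few points high values of r are common among this many candidates.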

How the data were processed

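The authors deposited raw UMI counts for each gene in each barcode, made with Cell Ranger 7.1.0 on GRCh38 per the submitters' processing notes from 10x Genomics 3' v3.1 libraries. The sources used here do not give the annotation release or say whether counting used strand or intron reads. Barcodes with at least 500 genes and at most 20% mitochondrial UMIs were kept, and the highest Scrublet scores (scanpy 1.11.5) were removed at 0.8% per 1000 barcodes (52 CNT, 16 3CK). UMIs were summed per cell set and scaled to CPM. Levels carry exact Poisson intervals, log2 ratios bounds derived from the exact binomial share of the 2 counts, and shares Clopper-Pearson intervals. Differences of log2 ratios carry normal intervals on the log scale, from the inverse of each count. Bounds given with a list median are those of its middle gene, or the mean of those of its 2 middle genes. All are at 95% and for counting error only. With 1 library per group no test was made. A count of 0 was set to 3 UMIs. The ratio calculation was tested on simulated data. Motifs were searched in RefSeq promoter windows.

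The 7 genes, the gene lists and the TTR ranges were chosen with earlier results of these data known. Named genes were the 7 in every comparison, in each list the most abundant and those with the extreme ratios, and the 3 most alike in pattern; further list members, CHKB, PDK4-AS1 and other overlapping genes, CXCL10 and FABP2 were chosen after their values were seen. Some list genes that this rule names are not reported here. Alternatives were other cell filters, doublet rates, limits of EPCAM, depth and TTR, TMM factors (edgeR 4.0.16), a total without abundant genes, equal weight per cell and, added after seeing the data, leaving out the cell with the most UMIs of a gene.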

Additional observations from a re-analysis of the deposited data

Results flagged for a closer look

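ACAT1 was taken up because its relation to TTR had opposite signs in the 2 libraries. Epithelial cells over 500 TTR UMIs per 10000 had a log2 ratio to cells under 50 of 0.60 in CNT and -0.40 in 3CK. The difference between the libraries was not tested, since there is 1 library of each. With TMM scaling the values were 1.51 and 0.23, still lower in 3CK but with the same sign. Without the cell with the most ACAT1 UMIs in each set the 3CK value was -0.82.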

How the results depend on the processing

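Scaling and weighting moved summary values beyond the counting bounds of their middle genes. No cell filter, doublet rate or EPCAM, depth or TTR limit did so. The median log2 ratio of the 7 genes over kept cells, -0.70, was -0.61 with TMM factors, -0.80 with abundant genes left out of the total and -0.82 with equal weight per cell. That of mitochondrial beta-oxidation, -0.07, was 0.021, -0.16 and -0.15 under the same 3 alternatives. In epithelial cells the median of the 6 genes with at least 1 CPM was -0.76 with abundant genes left out. For the high against the low TTR range the median with TMM factors was 0.77 in CNT (7 genes) and 0.33 in 3CK (6 genes). Among single genes whose interval excluded 0, 4 values changed sign, all between TTR ranges, and the cause was not tested: with TMM factors PPARA in CNT (0.65), ACAT1 in 3CK (0.23) and ACADM in 3CK (0.32), and with EPCAM at least 5 per 10000 PDK4 in CNT (0.21). The other values outside the summary set were single-gene ratios, further list medians, counts past 2-fold and shares of cells with and without thinning. Of these, 912 stayed within counting error or, for counts, a set factor, and 205 moved beyond it. The shares were set against those of the deeper unthinned cells, which are higher by depth alone, so this tally does not measure stability. No paired analysis was possible because each condition is 1 library, and for the same reason no replicate could be left out. Depth limits PDK4 in epithelial cells and each gene in the 69 3CK cells with high TTR and the 87 CNT cells with low TTR.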
